A study of Homo sapiens with 8 samples.

Results

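The genes described here are 8 members of the Hippo pathway, 6 of them target genes of the co-activator YAP and the TEAD transcription factors (CCN1, CCN2, ANKRD1, AMOTL2, LATS2 and AJUBA) and 2 the factors themselves (YAP1 and TEAD1). They were taken by symbol from a table of 60230 genes, each matched 1 row, and all 8 passed the filter on low counts that left 13400 genes for testing. CCN1 and CCN2 are the current names of CYR61 and CTGF. The choice of the genes used no measured value, but it was made with earlier results of these data known. RNA was sequenced from HepG2 cells, a human liver cancer line, that overexpress cytochrome P450 2C19 (CYP2C19), a drug-metabolizing enzyme of the liver, and all groups carried this transgene. The cells were exposed for 24 h to compound 4 (metylcresol in the labels), compound 5 (tetrabut) or compound 6 (cyclohexil), or to 0.2% DMSO as the control, with 2 replicates in each of 4 groups. The 3 compounds are phenolic antioxidants used in plastic, each built of a pair of phenol rings joined by a short carbon bridge. Compound 4 carries tert-butyl groups on its rings and compound 6 cyclohexyl groups in their place, while compound 5 carries additional tert-butyl groups and an ethane-derived bridge. Each was given at its own IC50, the concentration that halved growth, so that the doses were not the same. The replicates are named day 1 and day 2 in the labels, and nothing says that they came from separate cultures, so the p-values measure the spread between these samples, which may be technical.

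In the Hippo pathway, a chain of kinases ending in LATS1 and LATS2 phosphorylates YAP and its relative TAZ, which keeps them in the cytoplasm. When the kinases are less active, YAP and TAZ enter the nucleus and bind TEAD factors at DNA, where they switch on genes for secreted matrix proteins, for cytoskeletal regulators and for inhibitors of the pathway itself. In the liver, the pathway is known for its control of organ size and of hepatocyte growth. Phosphorylation and location of YAP are not measured by RNA sequencing, and the values below are RNA levels only.

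Relative to DMSO, compound 4 raised 3 of the 8 genes (ANKRD1, CCN1 and AJUBA) and compound 5 raised 2 (ANKRD1 and AJUBA) in the edgeR test. Of all genes tested, 5.6% and 5.35% passed the threshold and were higher under these compounds. Under compound 6 none of the 8 passed, while 0.575% of all genes did, and 2 of the 8 had an unadjusted p under 0.05, beside 18.6% of all genes. DESeq2 called 1 of the 8 under compound 6, and 518 of 13236 genes in all. The largest difference was that of ANKRD1, whose mean level was 6.40 times that of DMSO under compound 4, 4.02 times under compound 5 and 3.13 times under compound 6. CCN2, the most abundant of the 8 per length of RNA, did not pass the threshold in any comparison of the reported fit, but with the replicate number as a block it passed under compound 4 against DMSO (0.48, adjusted p = 0.0206, edgeR) and between compounds 4 and 5 (0.59, 0.0362). YAP1, TEAD1 and LATS2 differed from DMSO by at most 0.35 on the log2 scale under any compound, and none of these differences passed the threshold.

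The sequences around the start sites of the genes are shown because TEAD factors are known to bind the letters GGAATG. Promoter windows of 300 bases, from 250 before to 50 after the start site, were taken from RefSeq on GRCh38.p14, and 8 windows matched 6 of the genes (CCN2, ANKRD1, AMOTL2, LATS2, AJUBA and YAP1). GGAATG, searched on both strands, was found in 6 of these 8 windows, at least 1 for each of the 6 genes, whereas 14.0% of all 35116 windows held it. The genes were chosen as known parts or targets of this pathway, so the count is not independent of the choice and no conclusion is drawn from it. The letters TGANTCA, with any base at N, were searched as a loose form of the AP-1 motif and read nearly the same on both strands. They were found in 7.71% of all windows and in 1 of the 8, that of ANKRD1, where they read TGATTCA at position -195 from the start site. The 2 searched motifs do not overlap there. A match is a description of the letters and not of binding. In the stretches below, written 5′ to 3′ on the strand of the gene, capitals mark GGAATG or, for AMOTL2, its reverse complement. CCN2 is shown at greater length because its window holds 3 copies, at positions -169, -104 and -95, the last pair separated by 3 bases.
CCN2, chr6:131951423-131951622 (minus strand): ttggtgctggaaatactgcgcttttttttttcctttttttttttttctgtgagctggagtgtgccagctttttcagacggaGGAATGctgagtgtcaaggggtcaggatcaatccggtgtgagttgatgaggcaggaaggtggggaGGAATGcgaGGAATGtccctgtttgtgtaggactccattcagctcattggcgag
ANKRD1, chr10:90921290-90921319 (minus strand): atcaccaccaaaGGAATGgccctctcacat
AJUBA, chr14:22976884-22976913 (minus strand): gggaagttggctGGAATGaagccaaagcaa
AMOTL2, chr3:134374499-134374528 (minus strand): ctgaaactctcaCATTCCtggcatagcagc
YAP1, chr11:102110273-102110302 (plus strand): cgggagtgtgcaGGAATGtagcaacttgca
In ANKRD1 the copy shown begins at position -220 and a second one begins at -128. The start site of this window also lies within the gene span given below, which ends at 90921276. The second copy (90921210-90921215) is inside that span and the copy shown is outside it. The windows of AJUBA and AMOTL2 that hold the motif belong to inner start sites, within the span of each gene, and the window at the outer start site of each does not hold it. The copy of LATS2 begins 9 bases after its start site.

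ANKRD1 (ENSG00000148677, GRCh38 chr10:90912096-90921276, minus strand) encodes an ankyrin repeat protein found in heart muscle and widely used as a readout of YAP. Its estimated counts were 17 and 13 in the DMSO libraries, 83 and 136 under compound 4, 90 and 70 under compound 5, and 43 and 49 under compound 6. Every treated library was above both DMSO libraries. Its level in CPM, which relate each count to the TMM-scaled total of its library, was 1.42 ± 0.462 under DMSO, 9.06 ± 1.81 under compound 4, 5.70 ± 2.42 under compound 5 and 4.43 ± 0.300 under compound 6 (± gives the SD over n = 2 libraries, here and in all further values). The log2-fold change relative to DMSO was 2.70 under compound 4 (SE 0.38, 95% interval 1.85 to 3.54, adjusted p = 0.00499) and 2.00 under compound 5 (SE 0.38, interval 1.14 to 2.86, adjusted p = 0.0174), in the quasi-likelihood test of edgeR, with p-values adjusted by the Benjamini-Hochberg method over the 13400 genes. Under compound 6 it was 1.66 (SE 0.40, interval 0.77 to 2.56) and missed the threshold in the same test, with an adjusted p of 0.0823. Of all genes tested, 0.433%, 0.582% and 1.1% had a larger log2-fold change under compounds 4, 5 and 6. Under compound 4 it was lost without DMSO replicate 2 (2.38, adjusted p = 0.0805), and under compound 5 it was lost without DMSO replicate 1 (2.34, 0.0744), DMSO replicate 2 (1.68, 0.152) or compound 5 replicate 1 (1.498, 0.0956). For compound 6 it was gained with DESeq2's Wald test (1.65, adjusted p = 0.030) and with an edgeR fit of the 4 samples compared (1.64, 0.0295). Without a filter on low counts it was also gained (1.65, adjusted p = 3.7e-05 by edgeR). In these 3 fits 518 of 13236, 1023 of 12998 and 1355 of 23080 genes passed, beside 77 of 13400 in the reported fit. More genes passed without the filter in every comparison, which bears on all unfiltered calls below. The call was also gained without either compound 5 library (1.65 and 1.67).

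CCN1 (ENSG00000142871, chr1:85580761-85583962, plus strand) encodes a secreted protein of the matrix around cells that binds integrins. Its estimated counts were 82 and 56 under DMSO, 155 and 267 under compound 4, 175 and 149 under compound 5, and 122 and 132 under compound 6. In CPM, the DMSO libraries held 8.40 and 4.69, and compound 4 held 14.5 and 20.3, well above them. Compound 5 held 14.4 and 8.48, and the lower of these lay just above the higher DMSO library. Compound 6 held 11.97 and 12.5. The log2-fold change was 1.43 under compound 4 (SE 0.32, interval 0.72 to 2.15, adjusted p = 0.0253), 0.81 under compound 5 (SE 0.32, 0.08 to 1.53, 0.139) and 0.92 under compound 6 (SE 0.33, 0.19 to 1.65, 0.179), in the same edgeR test. The call under compound 4 was lost without DMSO replicate 2 (1.06, adjusted p = 0.209) or compound 4 replicate 2 (1.17, 0.161). Under compound 5 a call was gained without compound 5 replicate 2 (1.1604, adjusted p = 0.0453) and without a filter on low counts (0.81, 0.0037), and under compound 6 without such a filter (0.91, 0.0015).

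CCN2 (ENSG00000118523, chr6:131948176-131951373, minus strand), a relative of CCN1, encodes connective tissue growth factor, a secreted protein known for its part in fibrosis. Its level was 168 and 116 CPM under DMSO, 245 and 154 under compound 4, 148 and 112 under compound 5, and 203 and 152 under compound 6. All treated groups overlapped with DMSO, and replicate 1 was the higher library in each of the 4 groups. The log2-fold change was 0.49 under compound 4 (SE 0.25, interval -0.07 to 1.05, adjusted p = 0.242), -0.13 under compound 5 (SE 0.25, -0.69 to 0.43, 0.766) and 0.32 under compound 6 (SE 0.25, -0.24 to 0.88, 0.527). With the replicate number as a block, the value under compound 4 was 0.48 (SE 0.10) and passed the threshold, with an adjusted p of 0.0206 by the same edgeR test. In that fit 12.7% of all genes passed under compound 4, and CCN2 was the only one of the 8 genes whose call against DMSO changed. It also passed under compound 4 without a filter on low counts (0.48, adjusted p = 0.0040). The direction under compound 5 turned without DMSO replicate 1 (0.15) or compound 5 replicate 2 (0.07).

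AMOTL2 (ENSG00000114019, chr3:134355874-134375479, minus strand) encodes an angiomotin-like protein of cell junctions that binds YAP and holds it outside the nucleus. It held 12.1 and 9.13 CPM under DMSO, 12.6 and 14.1 under compound 4, 17.0 and 15.3 under compound 5, and 9.71 and 11.2 under compound 6. Compound 5 gave its highest levels, and compound 6 lay within the range of DMSO. The log2-fold change was 0.61 under compound 5 (SE 0.18, interval 0.20 to 1.01), which missed the threshold with an adjusted p of 0.0659 in the edgeR test and passed it without a filter on low counts (0.61, 0.0273). It was 0.34 under compound 4 (SE 0.18, -0.07 to 0.75, adjusted p = 0.267) and -0.02 under compound 6 (SE 0.19, -0.44 to 0.41, 0.976), where it turned to 0.18 without DMSO replicate 1 and 0.07 without compound 6 replicate 1. A ribosomal protein pseudogene, RPL39P5, lies within AMOTL2 on the same strand.

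AJUBA and LATS2 encode proteins that meet at the LATS step of the pathway, and both genes are known targets of YAP. AJUBA (ENSG00000129474, chr14:22971174-22982642, minus strand) encodes a LIM-domain protein that restrains LATS kinases at cell junctions. It held 109 and 101 CPM under DMSO, 150 and 174 under compound 4, 165 and 152 under compound 5, and 121 and 117 under compound 6. All treated libraries were above both DMSO libraries, and those of compounds 4 and 5 were also above both of compound 6. The log2-fold change was 0.62 under compound 4 (SE 0.11, interval 0.37 to 0.87, adjusted p = 0.0125), 0.59 under compound 5 (SE 0.11, 0.34 to 0.84, 0.0165) and 0.17 under compound 6 (SE 0.11, -0.08 to 0.42, 0.440), in the edgeR test. Under compound 4 the call was lost without DMSO replicate 1 (0.67, adjusted p = 0.0528), DMSO replicate 2 (0.57, 0.145) or compound 4 replicate 2 (0.51, 0.0856). Under compound 5 it was lost without DMSO replicate 1 (0.63, adjusted p = 0.089), DMSO replicate 2 (0.54, 0.151) or compound 5 replicate 1 (0.52, 0.103). The number of genes called among all genes tested fell in the same fits, under compound 4 from 1275 to 390, 43 and 152 in that order, and under compound 5 from 1112 to 77, 46 and 118. An unnamed gene, ENSG00000259132, overlaps AJUBA on the same strand.

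LATS2 (ENSG00000150457, chr13:20973032-21061547, minus strand) encodes a kinase that phosphorylates YAP. It held 30.7 and 29.6 CPM under DMSO, 32.1 and 39.0 under compound 4, 36.1 and 32.8 under compound 5, and 35.2 and 32.8 under compound 6. All treated libraries were above both DMSO libraries, by small amounts. The log2-fold changes were 0.24 (SE 0.13, interval -0.06 to 0.54, adjusted p = 0.287), 0.19 (SE 0.13, -0.11 to 0.49, 0.379) and 0.17 (SE 0.14, -0.13 to 0.48, 0.534) under compounds 4, 5 and 6, in the edgeR test. The antisense gene LATS2-AS1 and a small RNA pseudogene overlap it, and while the libraries were made with a directional kit, the strand setting of the counting is not given in the sources used here.

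YAP1 (ENSG00000137693, chr11:102110461-102233423, plus strand) encodes YAP. It held 161 and 157 CPM under DMSO, 181 and 182 under compound 4, 208 and 182 under compound 5, and 171 and 177 under compound 6, so that every treated library was above both DMSO libraries. The log2-fold change was 0.29 under compound 5 (SE 0.10, interval 0.07 to 0.52), with an adjusted p of 0.0985 in the edgeR test. It reached 0.39 without compound 5 replicate 2, with an adjusted p of 0.0497. Under compounds 4 and 6 it was 0.19 (SE 0.10, -0.04 to 0.42, adjusted p = 0.269) and 0.13 (SE 0.10, -0.10 to 0.36, 0.539).

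TEAD1 (ENSG00000187079, chr11:12674591-12944483, plus strand) encodes a DNA-binding partner of YAP. It held 53.7 and 48.1 CPM under DMSO, 56.1 and 73.5 under compound 4, 65.7 and 51.1 under compound 5, and 62.1 and 61.1 under compound 6. Compound 5 overlapped with DMSO, while compounds 4 and 6 lay above it. The log2-fold changes were 0.35 (SE 0.16, interval -0.01 to 0.71, adjusted p = 0.194), 0.20 (SE 0.16, -0.16 to 0.56, 0.446) and 0.28 (SE 0.16, -0.09 to 0.64, 0.392) under compounds 4, 5 and 6, and the second of these became -0.0026 without compound 5 replicate 1.

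**Figure D1:**
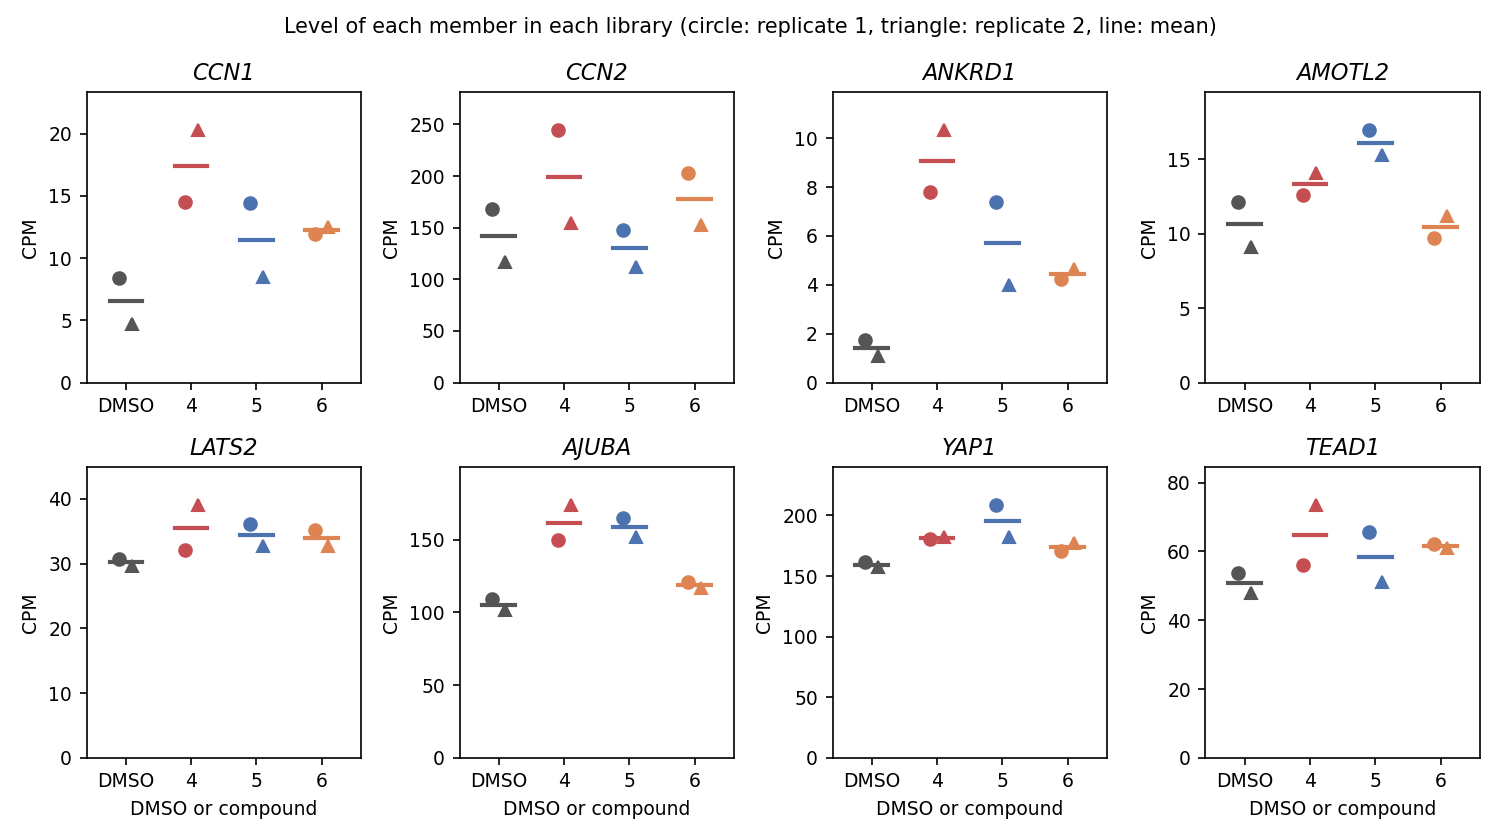
Level of each of the 8 genes in CPM (vertical axes, starting at 0) in the DMSO libraries and under compounds 4, 5 and 6. Circles are replicate 1, triangles replicate 2 and lines the mean of each group. For ANKRD1, all treated libraries (3.98 to 10.3 CPM) lay above the DMSO libraries (1.09 and 1.74), while for CCN2 every group overlapped with DMSO.

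The count of genes past the threshold is read here against the whole transcriptome. Under compound 4, 3 of the 8 genes passed, all higher, while 9.51% of all genes tested passed and 5.6% passed and were higher (27.5% had an unadjusted p under 0.05). Under compound 5, 2 of the 8 passed, both higher, while 8.3% of all genes passed and 5.35% passed and were higher (28.4% had an unadjusted p under 0.05). Under compound 6, 0 of the 8 passed with edgeR, while 0.575% of all genes passed and 0.493% passed and were higher. In that test 2 of the 8 had an unadjusted p under 0.05 (ANKRD1 and CCN1), beside 18.6% of all genes. DESeq2 called 1 of the 8 (ANKRD1) and 518 of the 13236 genes to which it gave an adjusted p. Both treated libraries were above both DMSO libraries for 7 of the 8 genes under compound 4, 6 under compound 5 and 6 under compound 6, against 30.4%, 31% and 29.3% of all genes tested. CCN2 was the exception under all 3 compounds, joined by TEAD1 under compound 5 and AMOTL2 under compound 6. In the opposite order, with both treated libraries below both DMSO libraries, there were 0 of the 8 under each compound, against 28%, 28.5% and 26% of all genes. The median log2-fold change of the 8 genes was 0.42, 0.44 and 0.22 under compounds 4, 5 and 6, compared with 0.01, 0.00 and 0.02 over all genes. The 3 comparisons share the DMSO libraries, so they are not independent of each other. In bulk RNA, a change in the number of cells of a kind and a change in the RNA of each cell cannot be told apart.

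**Figure D2:**
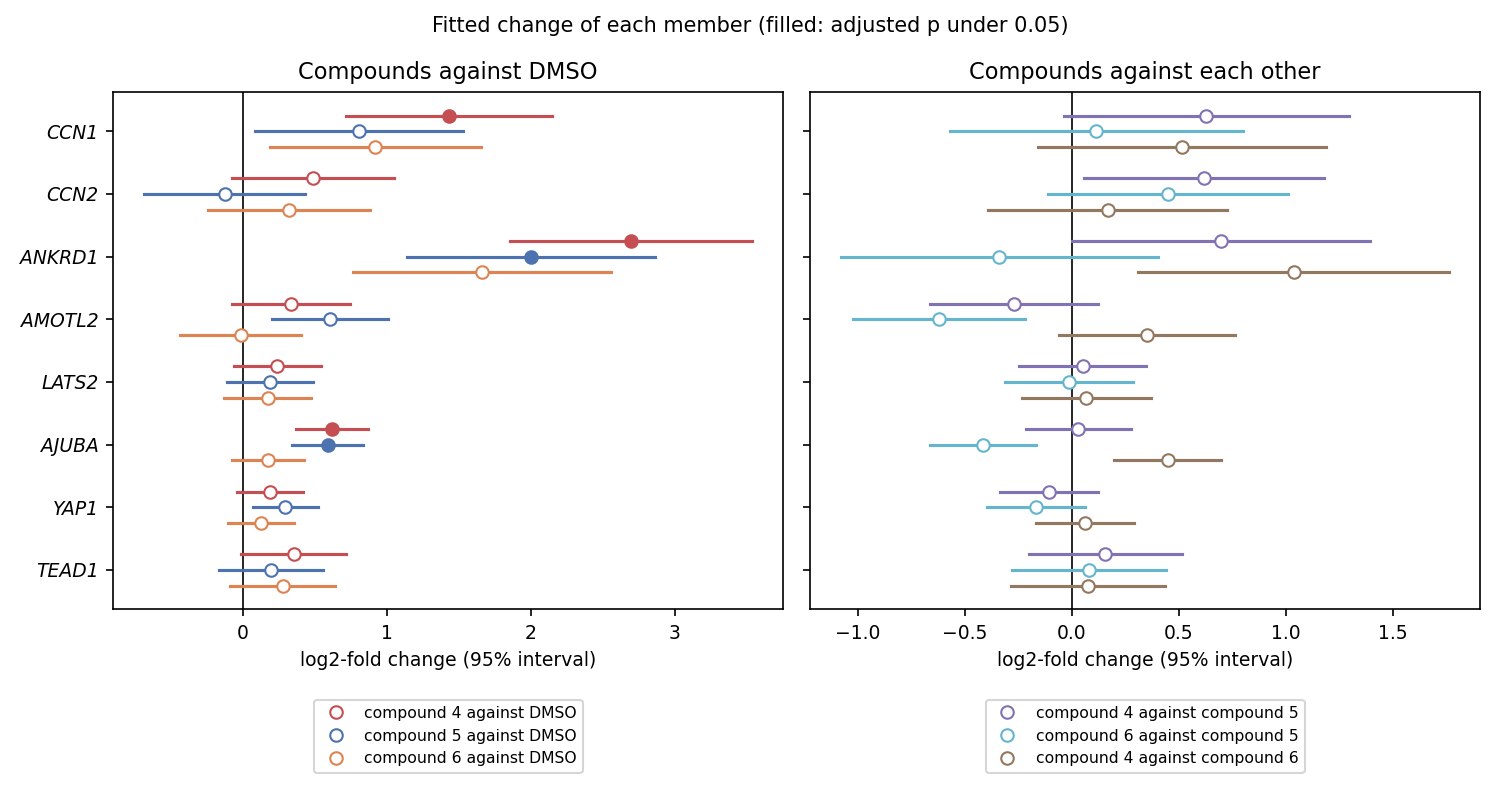
Fitted log2-fold change (horizontal axes) of each of the 8 genes, for each compound against DMSO on the left and for the 3 pairs of compounds on the right. Points are estimates, filled where the adjusted p was under 0.05, and bars are 95% intervals. The filled points are ANKRD1, CCN1 and AJUBA under compound 4 and ANKRD1 and AJUBA under compound 5, and no point on the right is filled.

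The compounds were also compared with each other, in 3 pairs, each with p-values adjusted over the 13400 genes. Since the compounds were given at different concentrations, these are differences between the treated groups and not between equal doses. In edgeR's test, 0 of the 8 genes passed the threshold for any pair, and 2 had an unadjusted p under 0.05 for each pair, while 0.313%, 1.03% and 0% of all genes passed for compound 4 against 5, compound 6 against 5 and compound 4 against 6 (16.2%, 18.5% and 7.05% at an unadjusted p under 0.05). DESeq2 called 0, 1 and 0 of the 8, and 194 of 12341, 364 of 11893 and 59 of 11893 genes in all. Compounds 4 and 6, which differ in the tert-butyl or cyclohexyl groups on their rings, gave ANKRD1 levels that differed by 1.04 on the log2 scale, higher under compound 4 (SE 0.32, interval 0.31 to 1.76, adjusted p = 0.529 by edgeR), and that passed without a filter on low counts (1.04, 0.0129). AJUBA differed by 0.45 between them (SE 0.11, interval 0.20 to 0.69, adjusted p = 0.372), also higher under compound 4, and both intervals are for that gene alone, unadjusted for the number of genes.

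Between compounds 6 and 5, AJUBA was 0.42 lower under compound 6 on the log2 scale (-0.42, SE 0.11, interval -0.66 to -0.17, adjusted p = 0.0976 by edgeR, and 0.0457 with DESeq2's Wald test). AMOTL2 differed by -0.62 (SE 0.18, interval -1.02 to -0.22, adjusted p = 0.121 by edgeR). Without a filter on low counts, both passed, as did CCN2 (0.43, adjusted p = 0.0284). Between compounds 4 and 5, CCN2 differed by 0.62 (SE 0.25, interval 0.06 to 1.18, adjusted p = 0.274 by edgeR). With the replicate block this value was 0.59 with an adjusted p of 0.0362, in a fit in which 0.955% of all genes passed, and it also passed without a filter on low counts (0.61, 0.00045). ANKRD1 differed by 0.70 between compounds 4 and 5 (SE 0.31, adjusted p = 0.307), and CCN1 by 0.63 (SE 0.30, adjusted p = 0.330). For AJUBA, the difference between compounds 4 and 5 was 0.03 with an interval of -0.22 to 0.28, and for LATS2 it was 0.05 with an interval of -0.25 to 0.35. For YAP1, LATS2 and TEAD1, the intervals of all 3 pairs lay between -0.40 and 0.51.

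The 8 genes were not expressed at the same level. In CPM per kilobase of exons, the order under DMSO was CCN2 (60.8 ± 15.6), YAP1 (25.3 ± 0.485), AJUBA (17.6 ± 0.917), LATS2 (5.41 ± 0.140), TEAD1 (4.95 ± 0.388), CCN1 (2.67 ± 1.07), AMOTL2 (1.77 ± 0.350) and ANKRD1 (0.715 ± 0.234). The libraries of neighbours in this order did not overlap, except for CCN1 and AMOTL2. On this scale the lowest 3 genes under DMSO included ANKRD1 and CCN1, those with the largest fitted changes. Under compound 4, CCN1 (7.10 ± 1.66) had rank 4, where its libraries overlapped with those of LATS2, and those of LATS2 with TEAD1. ANKRD1 (4.58 ± 0.912) was then above AMOTL2 (2.23 ± 0.177), with no overlap, and YAP1 (28.8 ± 0.142) and AJUBA (27.0 ± 2.84) overlapped. Under compounds 5 and 6, ANKRD1 reached 2.88 ± 1.22 and 2.24 ± 0.151, and its libraries overlapped with those of AMOTL2 under compound 5 and not under compound 6. CCN2 held the first place under every compound.

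Within groups, the replicates of the 8 genes often differed in a common direction. From replicate 1 to the other library of the group, all 8 genes were lower under DMSO and all 8 under compound 5, whereas 7 of 8 were higher under compound 4 and 4 of 8 under compound 6. The share of all genes that differed in these directions was not computed, so whether the pattern is particular to the 8 genes was not tested. The column names mark replicate 1 of DMSO and of compound 4 as merged, and whether that has a part in the differences was not tested. For CCN1 the difference in log2 CPM, replicate 2 minus replicate 1, was -0.78 under DMSO, 0.47 under compound 4, -0.73 under compound 5 and 0.06 under compound 6. For ANKRD1 it was -0.50, 0.39, -0.82 and 0.12. CCN2 alone had the same sign in all 4 groups, at -0.53, -0.66, -0.40 and -0.41. YAP1 varied least under DMSO, by -0.04. Under compound 5, the spread of ANKRD1 and CCN1 between replicates was larger than under compound 6, where the sizes were 0.12 and 0.06.

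**Figure D3:**
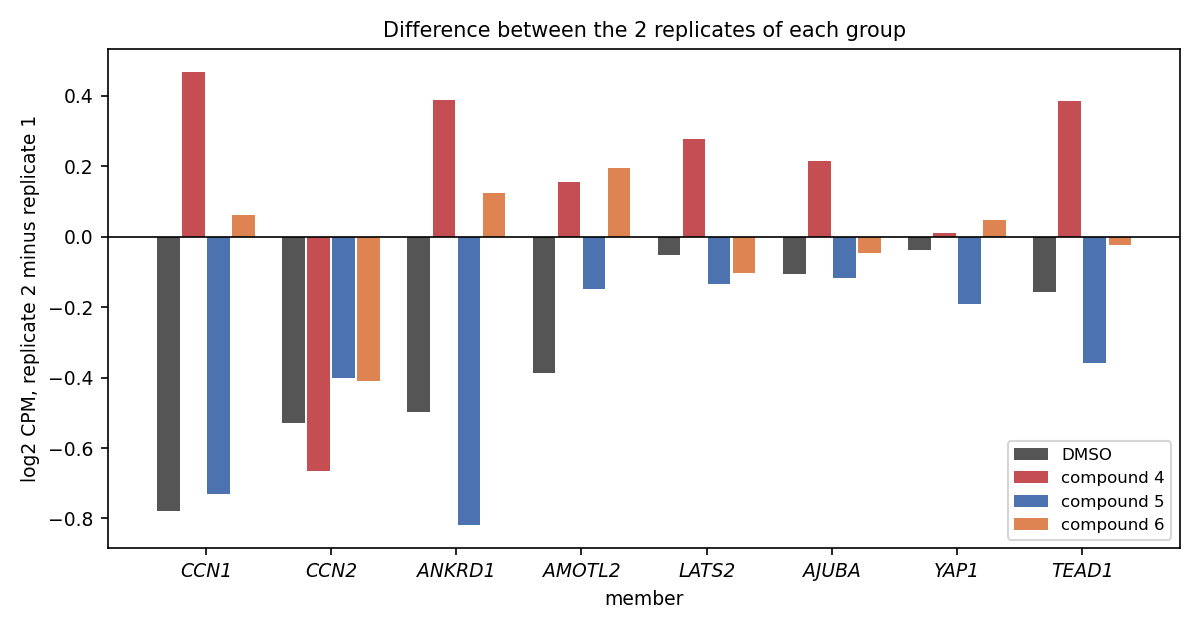
Difference between the replicates of each group (log2 CPM, replicate 2 minus replicate 1, vertical axis) for each of the 8 genes, with bars for DMSO and compounds 4, 5 and 6. All bars of DMSO and compound 5 are below 0, and CCN2 is the one gene with bars below 0 in all 4 groups, from -0.66 to -0.40.

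Across the 8 libraries, Pearson's r of log2 CPM (0.5 CPM added) was computed between the genes as a description, since the libraries of a group share their treatment. CCN1 and ANKRD1 had r = 0.95. Over the 21 pairs without CCN2, r was between 0.38 and 0.95 with a median of 0.79, whereas over the 7 pairs with CCN2 it was between -0.14 and 0.53 with a median of 0.16. By the same measure, over 12728 genes with a mean of at least 1 CPM, the genes most like CCN1 were EPAS1 (r = 0.99), ZBTB42 (0.99) and ZSWIM5 (0.98). Those most like ANKRD1 were the long non-coding RNA UCA1 (0.99), MOSPD1 (0.99) and ARRB2 (0.99), and those most like AJUBA were the receptor kinase gene TYRO3 (0.99), ARRB1 (0.99) and RPS9 (0.98). For CCN2 they were SPP1 (0.98), which encodes the secreted protein osteopontin, KARS1P2 (0.97) and APOL2 (0.97). For AMOTL2 they were YIPF3, SYS1 and WHAMM (each 0.97 or, for WHAMM, 0.965). The nearest genes were KIF13B, ATP13A3 and ARFGEF3 for LATS2 (0.98, 0.96 and 0.96), RAP2B, RNGTT and PPARGC1A for YAP1 (0.99, 0.99 and 0.98), and AFDN, ACAP2 and LCOR for TEAD1 (each 0.98). With 8 libraries and so many genes searched, nothing about shared function or control is drawn from these values.

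The other genes of the pathway were taken from lists by their known roles, but the lists were chosen with earlier results of these data known. Of 17 further YAP target genes, 12 could be tested, and under compound 4 there were 4 past the threshold, all higher, while 9.51% of all genes passed and 5.6% passed and were higher. AXL, a receptor tyrosine kinase, had 87 and 65 counts under DMSO, 293 and 728 under compound 4, 299 and 208 under compound 5, and 253 and 521 under compound 6. Its log2-fold change was 2.55 under compound 4 (SE 0.49, adjusted p = 0.0153 by edgeR), 1.34 under compound 5 (SE 0.50, 0.117) and 2.39 under compound 6 (SE 0.49, 0.0576). IGFBP3, which binds insulin-like growth factors, rose by 2.05 under compound 4 (SE 0.37, adjusted p = 0.0126) and FJX1, a secreted regulator of Fat cadherins, by 1.19 (SE 0.24, 0.0189). GADD45A, a stress and growth arrest gene, was past the threshold under compound 4 (0.58, adjusted p = 0.0311) and was the 1 gene past it under compound 5 (0.51, 0.0498), where 8.3% of all genes passed. Under compound 6, 0 of the 12 passed with edgeR and 6 had an unadjusted p under 0.05, beside 0.575% and 18.6% of all genes. DESeq2 called 1 of the 12 (AXL) and 518 of 13236 genes in all. The medians of the 12 genes were 0.34, 0.44 and 0.42 under compounds 4, 5 and 6. Leaving out either DMSO library or compound 4 replicate 2 lowered the count under compound 4. Under compound 5 it was lower without either DMSO library, compound 5 replicate 1 or either compound 6 library. It was higher there without compound 4 replicate 2 or compound 5 replicate 2. Under compound 6 it was higher without either compound 5 library. The number called among all genes moved in the same direction in each of these fits. MYOF, FOXF2, CCDC80, TGFB2 and RBMS3 had at most 4 counts in any library and were not tested.

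Among the partners of YAP1 and TEAD1, 5 of 7 genes could be tested (WWTR1, which encodes TAZ, TEAD2, TEAD3, TEAD4 and VGLL4). TEAD4 rose under compound 5, from 51.4 and 52.3 CPM under DMSO to 83.9 and 84.4, a log2-fold change of 0.70 (SE 0.14, adjusted p = 0.0200 by edgeR). Under compounds 4 and 6 it differed from DMSO by 0.48 (adjusted p = 0.0608) and 0.45 (0.147). WWTR1 differed by 0.39, 0.14 and 0.17 under compounds 4, 5 and 6 (adjusted p = 0.108, 0.524 and 0.564), and with the replicate block both TEAD4 (0.47, adjusted p = 0.0365) and WWTR1 (0.40, 0.0488) passed under compound 4. The call of TEAD4 under compound 5 was lost without DMSO replicate 1 (0.68, adjusted p = 0.116), DMSO replicate 2 (0.71, 0.138) or compound 5 replicate 1 (0.69, 0.0949). Under compound 4 TEAD4 passed with DESeq2 (0.47, adjusted p = 0.0441), without a filter on low counts (0.47, 0.0145), with at least 10 counts in each sample (0.48, 0.0478) and without compound 4 replicate 1 (0.61, 0.0474). Under compound 6 it passed without a filter (0.43, adjusted p = 0.0495). VGLL1 had no count and VGLL3 had 1 in all libraries together.

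Of the relatives of the 8 genes, 3 of 8 were tested. AMOT, the angiomotin gene after which AMOTL2 is named, fell, from 26.2 and 26.3 CPM under DMSO to 13.7 and 12.5 under compound 4 and 12.6 and 16.0 under compound 5. Its log2-fold change was -1.01 under compound 4 (SE 0.15, adjusted p = 0.00654 by edgeR) and -0.87 under compound 5 (SE 0.15, 0.0121), and it held 17.95 and 17.3 CPM under compound 6 (-0.57, SE 0.15, adjusted p = 0.103). The call of AMOT under compound 4 was lost without DMSO replicate 2 (-1.004, adjusted p = 0.0805) or compound 4 replicate 2 (-0.94, 0.0631). Under compound 5 it was lost without DMSO replicate 1 (-0.88), DMSO replicate 2 (-0.86) or compound 5 replicate 1 (-0.72). Under compound 6 it was gained without compound 5 replicate 1 (-0.58) and in the fit of the 4 samples compared (-0.59, adjusted p = 0.0253 by edgeR). It was also gained there without a filter on low counts (-0.59, adjusted p = 0.0258 by edgeR). LIMD1 and WTIP, relatives of AJUBA, differed from DMSO by between -0.07 and 0.44 under the 3 compounds with no call. AMOTL1 and the CCN family genes CCN3, CCN4, CCN5 and CCN6 had at most 2 counts in a library and were not tested.

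Apart from LATS2, 14 of 15 listed genes of the kinase cascade and its scaffolds were tested. With edgeR, 0 passed the threshold under any compound, with 1, 1 and 0 at an unadjusted p under 0.05 for compounds 4, 5 and 6. Of all genes, 9.51%, 8.3% and 0.575% passed, and 27.5%, 28.4% and 18.6% had an unadjusted p under 0.05. DESeq2 called 1 (MAP4K4) under compound 4, where it called 1384 of 12788 genes in all. MAP4K4, a kinase that acts beside the MST kinases, differed by -0.35 under compound 4 (adjusted p = 0.0651 by edgeR), and with the replicate block by the same -0.35 with an adjusted p of 0.0369. The medians of the 14 genes were 0.04, 0.13 and 0.09. LATS1, the relative of LATS2, differed by 0.05, 0.40 and 0.10, and was called under compound 5 without compound 5 replicate 2. Of 9 genes for junction and polarity proteins that feed into the pathway, 7 were tested, and 0 passed under any compound with edgeR, with 4, 2 and 0 at an unadjusted p under 0.05, beside the same shares of all genes. DESeq2 called 1 (PATJ) under compound 5, where it called 1284 of 12341 genes in all. FAT1, an atypical cadherin, differed by 0.64, 0.81 and 0.48 (adjusted p = 0.108, 0.0581 and 0.292 by edgeR). It passed under compound 5 without either compound 4 library. More of the 7 genes passed without compound 5 replicate 2, where more of all genes passed too. FRMD6, FAT4 and DCHS1 were not tested.

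CCN1 and CCN2 also belong to the genes that answer to the serum response factor SRF and its actin-regulated co-activators, and a list of 12 SRF and actin genes was therefore set beside them. Under compound 4, 6 passed the threshold and were higher, while 9.51% of all genes passed and 5.6% passed and were higher. TAGLN, an actin-binding protein of smooth muscle, had 3 and 6 counts under DMSO, 20 and 42 under compound 4, 16 and 24 under compound 5 and 20 and 37 under compound 6. Its log2-fold change was 2.60 under compound 4 (SE 0.53, adjusted p = 0.0185 by edgeR), 1.68 under compound 5 (0.0897) and 2.70 under compound 6 (0.0541). Its DMSO counts are below the minimum count of 10, so TAGLN passed the filter through the treated libraries, its fitted changes are uncertain in size, and without it 5 of the SRF and actin genes passed under compound 4. FLNA, which crosslinks actin filaments, rose by 1.30 under compound 4 (SE 0.16, adjusted p = 0.00391) and 0.94 under compound 5 (0.0123), and differed by 0.88 under compound 6 (0.0505). MYL9, a myosin light chain gene, rose by 1.19 under compound 4 (SE 0.31, adjusted p = 0.0404). The other 3 were ACTG1 (1.17), CNN2 (0.71) and ACTB (0.43). Under compound 5, 4 were higher (ACTG1, FLNA, CNN2 and ACTB) and ACTA2, a smooth muscle actin gene, was lower (-0.997, SE 0.23, adjusted p = 0.0319), while 8.3% of all genes passed, 5.35% higher and 2.95% lower. ACTB and ACTG1 are near-identical in coding sequence and have pseudogenes, so the split of their reads is uncertain.

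Under compound 6, 0 of the 12 SRF and actin genes passed with edgeR, while 0.575% of all genes passed. An unadjusted p under 0.05 was found for 5 of the 12 and for 18.6% of all genes in that test. DESeq2 called 3 of the 12 (ACTG1, FLNA and TAGLN) and 518 of 13236 genes in all. TAGLN, with DMSO counts below the minimum count, is included in both of these counts and in the medians that follow. The medians were 0.44, 0.41 and 0.23 under compounds 4, 5 and 6, beside 0.42, 0.44 and 0.22 for the 8 Hippo pathway genes. With a library left out, fewer passed under compound 4 without either DMSO library or compound 4 replicate 2. Fewer also passed under compound 5 without either DMSO library or compound 5 replicate 1. Under compound 6 more passed without either compound 5 library or either compound 4 library. The number called among all genes moved in the same direction in each of these fits.

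**Figure D4:**
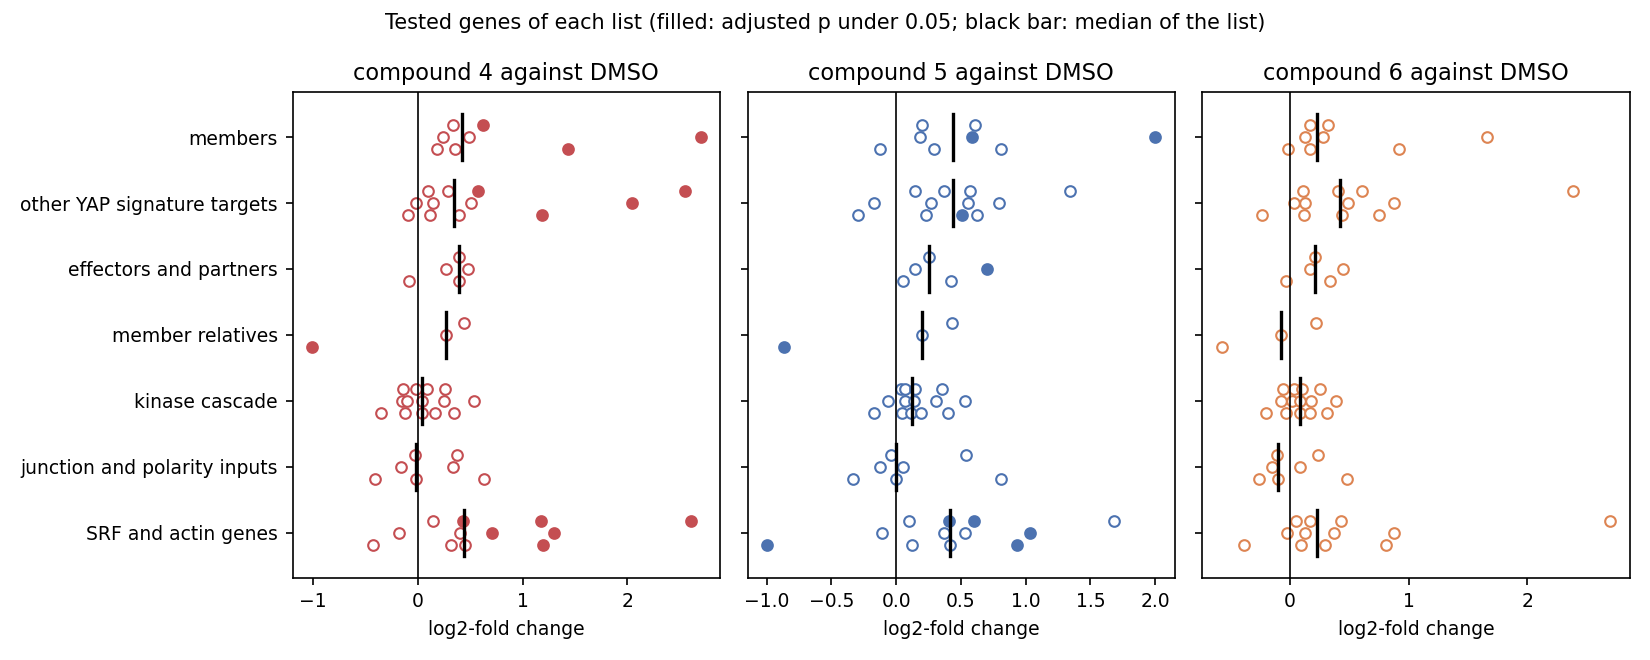
Fitted log2-fold change against DMSO (horizontal axes) of every tested gene of the 8 described genes (members) and of the 6 other lists, with 1 panel for each compound. Filled points had an adjusted p under 0.05, and black bars are the medians of the lists. The filled points of compounds 4 and 5 lie mainly to the right of 0, with AMOT and, under compound 5, ACTA2 to the left, and the panel of compound 6 has no filled point.

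The cells were checked for markers of liver cells and of other cell types, since CCN1, CCN2, AXL and TAGLN are abundant in fibroblasts. The 9 hepatocyte markers were all detected, and their summed level was 50664 to 54654 CPM under DMSO, 34999 to 42425 under compound 4, 43463 to 44734 under compound 5 and 37678 to 43803 under compound 6. Under compound 4, 4 of the 9 fell, APOA1 (-0.90), AFP (-0.71), APOB (-0.61) and TF (-0.52), while 9.51% of all genes passed and 3.91% passed and were lower. Under compound 5 FGB rose (0.53), but it was the 1 marker of the 9 above 0, with a median of -0.21, and APOA1 (-0.52, adjusted p = 0.0858 by edgeR) and AFP (-0.48, 0.0596) missed the threshold. Under compound 6 the median was -0.36, and APOA1 (-0.91, adjusted p = 0.0510) and TF (-0.57, 0.0581) missed the threshold. The sum of 6 fibroblast markers was 5.11 to 9.22 CPM under DMSO, 23.3 to 25.4 under compound 4, 7.63 to 11.4 under compound 5 and 14.3 to 14.6 under compound 6, almost all of it PDGFRB, which rose by 1.79 under compound 4 (SE 0.27, adjusted p = 0.00634 by edgeR). The defining collagen and matrix markers were at or near 0 in every library, with no count of COL1A2, DCN or LUM and at most 1 of COL1A1 or COL3A1. The sum of 4 endothelial markers was between 0.740 and 2.08 CPM over all libraries, with KDR at 0. Of 4 leukocyte markers, PTPRC and CD3E were at 0, and the sum, 1418 to 2188 CPM, was that of LYZ and CD68, of which CD68 rose by 0.80 under compound 4 (adjusted p = 0.0164). CYP2C19, the overexpressed gene, had 196 to 667 counts and differed by 0.79, 1.05 and 0.04 under compounds 4, 5 and 6 (adjusted p = 0.0858, 0.0395 and 0.951). The part of the change in liver markers in the results above was not tested.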

How the data were processed

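RNA from 8 samples in 4 groups (2 replicates each) was analysed, with total counts of 9791659 to 17814595 per sample. The authors estimated transcript abundance with Salmon (1.5.0 in the submitters' processing notes, with FastQC 0.12.0 and DESeq2 1.38.3, on GRCh38), used tximeta to sum it per gene, and deposited estimated counts as whole numbers without normalization. Gene positions come from GENCODE 29 and promoter sequences from RefSeq.

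Counts were tested in R 4.3.3 with edgeR 4.0.16 (TMM factors, filterByExpr at a minimum count of 10, a quasi-likelihood test of group means over the 8 samples fitted together with no block, Benjamini-Hochberg adjustment, adjusted p under 0.05). SE was the absolute log2-fold change divided by the square root of F. The alternatives were DESeq2 1.42.0 (Wald test), a block for the replicate number, fitting the 4 samples compared alone, DESeq2's size factors, no filter, at least 10 counts in each sample, and dropping each library in turn. The script was tested on simulated data. The day in the labels is where the pairing of replicates comes from, and the difference between replicates 2 and 1 had r of -0.16 to 0.30 across genes over the 6 pairs of groups. The genes and lists were chosen with earlier results of these data known. From each other list, the 3 genes with the largest changes past the threshold in each direction were to be named, and GADD45A, ACTG1, CNN2, ACTB, WWTR1, MAP4K4, LATS1, FAT1, PATJ, LIMD1, WTIP and TF were named after their values were seen. Interactions at the protein level were not analysed here.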

Additional observations from a re-analysis of the deposited data

How the results depend on the processing

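Each group had 2 samples, and under DMSO the counts were 17 and 13 for ANKRD1 and 82 and 56 for CCN1, against 1066 and 1212 for AJUBA. Calls were lost with a library left out for all 3 genes, and whether depth had a part in it was not tested. Each log2-fold change of the 8 genes was recomputed in 14 alternatives. Against DMSO, 307 of the recomputed values kept their direction and their side of the threshold, 12 lost and 12 gained a call, and 5 changed direction. Between compounds, 314 were the same in this sense, 7 gained a call and 15 changed direction. Changes of direction arose only when a library was left out, and their cause was not tested, other than that such fits have fewer samples.

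The number of the 8 genes past the threshold under compound 4 fell without either DMSO library or compound 4 replicate 2. Under compound 5 it fell without either DMSO library or compound 5 replicate 1, and rose without compound 5 replicate 2. In each of these fits the number called among all genes moved in the same direction. Without a filter, 4 of the 8 genes passed under compound 5, where 2431 of 23080 genes passed in all. In the reported fit 1112 of 13400 did. Under compound 6 the number of the 8 genes was 1 with DESeq2 (518 of 13236 genes in all). It was 1 in the fit of the 4 samples compared (1023 of 12998) and 2 without a filter (1355 of 23080). It rose without either compound 5 library, as did the number called among all genes. Between compounds 4 and 5 the number of the 8 genes was 1 with the replicate block (128 of 13400 in all) and 1 without a filter (750 of 23080). Between compounds 6 and 5 it was 1 with DESeq2 (364 of 11893 genes in all) and 3 without a filter (990 of 23080). Between compounds 4 and 6 it was 1 (ANKRD1) without a filter (259 of 23080). With the replicate block (the pairing by day), the count under compound 4 was 4, with CCN2 added, and the block changed no other call of the 8 genes than those of CCN2 under compound 4 and between compounds 4 and 5. Among the SRF and actin genes it added SRF under compound 4 (0.44, adjusted p = 0.0356, edgeR) and compound 5 (0.42, 0.0447).

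Over all genes tested, the alternatives called 43 to 2383 under compound 4 (1275 in the reported fit), 46 to 2431 under compound 5 (1112), 2 to 1355 under compound 6 (77), 9 to 750 between compounds 4 and 5 (42), 0 to 990 between compounds 6 and 5 (138) and 0 to 259 between compounds 4 and 6 (0, and 945 at an unadjusted p under 0.05).

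With a library left out, the log2-fold changes that changed direction ranged as follows. Under compound 5, CCN2 lay between -0.37 and 0.15 and TEAD1 between -0.0026 and 0.37, and under compound 6 AMOTL2 lay between -0.21 and 0.18. Between compounds 4 and 5, LATS2 lay between -0.10 and 0.18, AJUBA between -0.0864 and 0.13 and TEAD1 between -0.0589 and 0.35. Between compounds 6 and 5, CCN1 lay between -0.24 and 0.53, ANKRD1 between -0.74 and 0.15, LATS2 between -0.0863 and 0.0522 and TEAD1 between -0.0941 and 0.27. Between compounds 4 and 6, CCN2 lay between -0.21 and 0.46, LATS2 between -0.0857 and 0.20 and TEAD1 between -0.14 and 0.25. None of these values passed the threshold.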
